A study of Mus musculus with 7 samples.

Results

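Hox genes encode homeodomain transcription factors and lie in 4 clusters, Hoxa, Hoxb, Hoxc and Hoxd, numbered by paralog position within each cluster. The members described here are all genes whose symbol names a cluster letter and a paralog number and which had a probe set with that symbol alone. This gave 34 genes of 17096 in the table, out of 39 mouse Hox genes in the gene annotation. The other 5 were not analysed here. Each gene was represented by its probe set of highest mean log2 intensity. 28 genes had 1 probe set and 6 had more.

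Expression was measured on Affymetrix arrays of sorted mouse mammary cells, 7 arrays in all. Adult luminal cells (2 arrays) were YFP+ cells of K8CREERT2/RosaYFP mice 8 weeks after tamoxifen, and adult basal cells (2 arrays) were YFP+ cells of K5CREERT2/RosaYFP mice at the same time, so each lineage is the set of cells in which a keratin promoter had driven Cre. Embryonic cells (3 arrays of 2000, 2000 and 813 cells) were CD49fHi Lgr5Hi mammary cells of Lgr5-IRES-GFP female embryos at embryonic day 14, each array a pool of the female embryos of 1 litter. The labels give no age for the adult mice and do not say whether adult replicates came from separate animals or which pair of glands was taken, and the p-values cover the array-to-array spread alone, which may be technical.

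As background, Hox genes are expressed along the body axis in an order that follows their order in the cluster, and adult cells often keep the Hox pattern of the body level they came from. Hox proteins bind DNA together with Pbx and Meis cofactors, and Polycomb and trithorax complexes keep the clusters silent or active. In mice, the paralog 9 genes Hoxa9, Hoxb9 and Hoxd9 act together in mammary development at pregnancy, and Hoxc8 takes part in placing the embryonic mammary buds.

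Members differed in whether their signal stood above background. An array signal has no true zero, so a background level was taken from 66 genes known from other organs. It was the 95th percentile of their 88 probe sets, a log2 intensity of 5.60. By group means, 11 of the 34 Hox genes (32.4%) lay above it in an adult lineage, against 9354 of all 17096 genes (54.7%). These were Hoxa3, Hoxa7 and Hoxa9, Hoxb3, Hoxb4 and Hoxb8, Hoxc5, Hoxc8, Hoxc9 and Hoxc10, and Hoxd9. Of the 11, 6 were above it in both lineages and 5 in basal cells alone (Hoxa7, Hoxb8, Hoxc5, Hoxc8 and Hoxc10). Without basal replicate 2, on which Hoxa7, Hoxc5 and Hoxc8 had their only basal signal above the level, 8 Hox genes were above it in an adult lineage and 2 of them (Hoxb8 and Hoxc10) in basal cells alone. Just inside the level were the basal means of Hoxc8 (5.62) and Hoxc5 (5.63) and the luminal mean of Hoxa3 (5.62). Just outside were the luminal means of Hoxa7 (5.56) and Hoxc5 (5.48). Apart from the same level applied to all, intensities of different probe sets are not compared, since each probe set responds in its own way. A probe set that responds weakly can lie under the level though its gene is expressed. Counts above the level, also by cluster and position, thus describe signal and do not show which genes are silent.

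By position, paralog number 9 had the most members above background on every adult array, 3 of 4. Hoxa9, Hoxc9 and Hoxd9 were above background on all 4 adult arrays, as were Hoxb3 and Hoxb4 at positions 3 and 4. Hoxb9, the fourth gene of position 9, was above it on no array (4.80 and 4.95 in luminal cells, 4.85 and 4.98 in basal cells, and 5.20, 5.02 and 4.52 in embryonic cells). By cluster, 3 of 9 Hoxa genes, 3 of 10 Hoxb genes, 4 of 6 Hoxc genes and 1 of 9 Hoxd genes were above background in an adult lineage. By region of the cluster, the counts were 2 of 7 at positions 1 to 3, 5 of 13 at positions 4 to 8 and 4 of 14 at positions 9 to 13. Without basal replicate 2, the count fell to 2 of 6 for Hoxc genes and to 2 of 13 at positions 4 to 8. Of the genes at positions 11 to 13, 0 of 7 were above background.

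**Figure D1:**
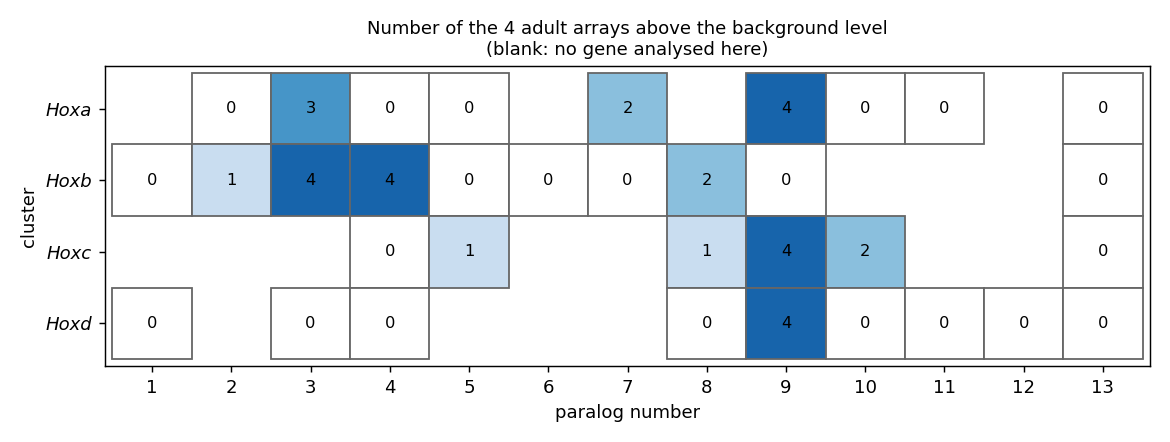
Each square is a Hox gene placed by cluster (rows) and paralog number (columns), and the number in it counts the adult arrays, of 4, on which its log2 intensity exceeded the background level of 5.60. Places with no square hold no gene analysed here, and Hoxa9, Hoxc9, Hoxd9, Hoxb3 and Hoxb4 reached 4.

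None of the 34 Hox genes passed the test between adult luminal and adult basal cells. A gene was called when its Benjamini-Hochberg adjusted p in limma was under 0.05 over all 17096 genes and the difference was at least 2-fold. By this rule 939 genes, 5.49% of those tested, were called, 490 (2.87%) higher in luminal and 449 (2.63%) higher in basal cells, and 9.45% of genes above background in an adult lineage were. Of the Hox genes 0 were called at that rule, also 0 in the same fit without a fold minimum (13% of all genes), and 4 had an unadjusted p under 0.05 (31.3% of all genes). The lowest adjusted p of a Hox gene was 0.0759, for Hoxb8. The spread behind these p-values was estimated over all 7 arrays, and how the embryonic columns were adjusted is unknown. With the 4 adult arrays fitted alone, 0 Hox genes were called, and Hoxb8, under 2-fold, had a limma adjusted p of 0.0153. Differences are luminal minus basal on the log2 scale. Their median over the 34 members was -0.04, against 0.02 over all genes, and 20 members were lower and 14 higher in luminal cells by value. These counts include 23 members under background in both lineages. The arrays of the lineages did not overlap for 13 of the 34 members (11 lower and 2 higher in luminal cells), a share of 38.2% against 59.2% of all genes. In pools of sorted cells, fewer cells with a transcript and less of it per cell cannot be told apart.

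**Figure D2:**
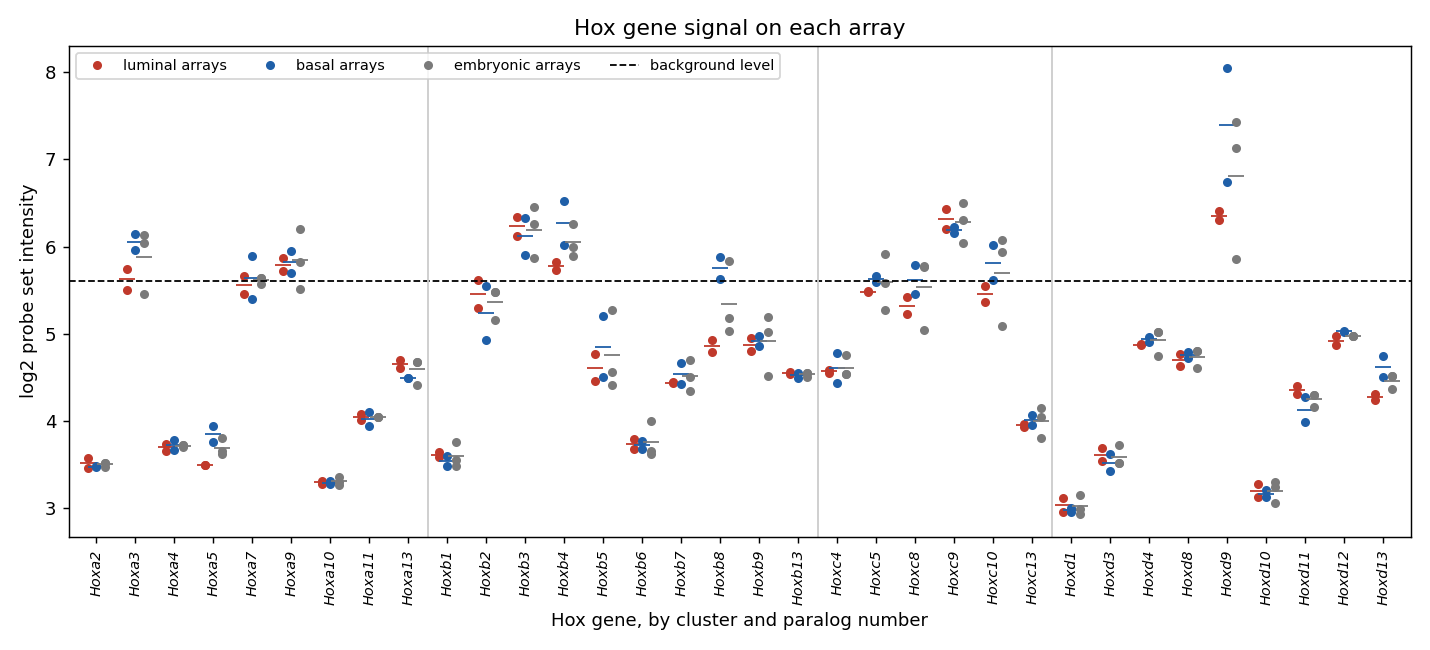
Log2 probe set intensity (vertical axis) of the 34 Hox genes on each array, in luminal (red), basal (blue) and embryonic (grey) cells; horizontal ticks are group means and the dashed line is the background level of 5.60. The luminal and basal points of most genes lie close together, and 23 genes have both adult means under the line.

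RefSeq promoter sequence was at hand for 21 of the 34 members, among them the 3 with the largest differences by value above background. The 250 bases before the annotated start of these 3 are printed, 5′ to 3′ (build GRCm38.p6). Capitals mark the TATA box letters TATAAA, the CCAAT box letters CCAAT, the GC box letters GGGCGG and the Pbx-Hox site letters TGATTNAT, each searched on both strands, and no marked match overlaps another.

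Hoxd9 (chr2:74697513-74697762, plus strand): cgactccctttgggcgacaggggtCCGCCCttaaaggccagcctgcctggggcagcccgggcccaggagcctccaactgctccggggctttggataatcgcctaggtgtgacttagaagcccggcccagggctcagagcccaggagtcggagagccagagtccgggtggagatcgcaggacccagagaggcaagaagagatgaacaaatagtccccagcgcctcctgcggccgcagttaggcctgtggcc

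Hoxb8 (chr11:96281655-96281904, plus strand): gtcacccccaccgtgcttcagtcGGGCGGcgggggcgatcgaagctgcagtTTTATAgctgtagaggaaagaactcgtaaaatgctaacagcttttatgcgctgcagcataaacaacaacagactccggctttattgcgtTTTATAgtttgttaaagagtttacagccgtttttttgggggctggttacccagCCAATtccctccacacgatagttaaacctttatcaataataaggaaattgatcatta

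Hoxb4 (chr11:96318017-96318266, plus strand): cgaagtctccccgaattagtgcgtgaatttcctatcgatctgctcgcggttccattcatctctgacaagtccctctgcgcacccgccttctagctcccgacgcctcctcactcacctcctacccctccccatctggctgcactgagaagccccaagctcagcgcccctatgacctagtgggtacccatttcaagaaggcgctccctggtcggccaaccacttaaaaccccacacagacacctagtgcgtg

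The Hoxb8 stretch held 2 matches to TATAAA, 1 to CCAAT and 1 to GGGCGG. The Hoxd9 stretch held 1 match to GGGCGG and 0 to the other 3, and the Hoxb4 stretch held 0 of all 4. GC content was 65.2% for Hoxd9, 44.4% for Hoxb8 and 58.0% for Hoxb4. Over the 23 promoters of Hox members TATAAA was found in 4, or 17.4% (12.4% of all 32841 promoters of the same length). CCAAT was found in 13, or 56.5% (33.9%), GGGCGG in 9, or 39.1% (32.7%), and TGATTNAT in only 2, or 8.70% (2.83%). Matches are letters in a window and not sites shown to be bound. The CpG count had a median of 12 in the Hox promoters and 6 in all promoters.

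The difference of Hoxd9 was the largest by value, and its size depended on which basal array was kept. Hoxd9 had log2 intensities of 6.30 and 6.40 in luminal cells, against 6.74 and 8.05 in basal cells. The lineages did not overlap, but the basal arrays differed from each other by 1.31, more than the lineages did. The difference was -1.04 ± 0.60 (SE, n = 2 and 2 arrays, 95% interval -2.50 to 0.42, limma adjusted p = 0.295). Its SE used a spread estimated over all 7 arrays, the embryonic ones included. With the 4 adult arrays fitted alone, the limma adjusted p was 0.147. Without basal replicate 1 the difference was -1.69, and without basal replicate 2 it was -0.38. Markers of stroma were also lower on the luminal arrays by value. Fibroblast markers had a log2 summed intensity of 11.75 and 12.45 on the luminal and 13.20 and 13.48 on the basal arrays. Endothelial markers had a log2 summed intensity of 12.09 and 12.31, against 12.37 and 12.40, and 0 of 11 were called. Among them, Pecam1 had 6.09 and 7.29 in luminal cells, against 7.95 and 8.69 in basal cells. The part of fibroblast or endothelial RNA in the Hoxd9 signal was not tested.

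Hoxb8, known in mice for excessive grooming when it is lost, came nearest to the threshold. It had log2 intensities of 4.79 and 4.93 in luminal cells, both under the background level, against 5.62 and 5.88 in basal cells, both above it. The difference was -0.89 ± 0.27 (SE, 95% interval -1.54 to -0.25, limma adjusted p = 0.0759), 1.86-fold lower in luminal cells by value. Luminal signal under background has no exact size, so neither has this ratio. The adjusted p was 0.0153 when the 4 adult arrays were fitted alone and 0.373 with array weights, with the same difference of -0.89 in both fits. Hoxb4, known for expanding blood stem cells when overexpressed, had 5.82 and 5.73 in luminal cells, against 6.02 and 6.52 in basal cells. The arrays did not overlap. Luminal minus basal was -0.49 ± 0.19, and the test was not passed (limma adjusted p = 0.141). A second Hoxb4 probe set, under background, differed by 0.06.

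The remaining anterior and central members above background differed less between the lineages. Hoxa3, needed in mice for the thymus and parathyroid, had log2 intensities of 5.50 and 5.74 in luminal cells, against 5.96 and 6.15 in basal cells. The difference was -0.43 ± 0.24 (limma adjusted p = 0.271), and the 3 other Hoxa3 probe sets, all under background, differed by -0.06, -0.03 and -0.01. Hoxb3 had 6.12 and 6.34 in luminal cells, against 5.91 and 6.33 in basal cells (0.11 ± 0.23, limma adjusted p = 0.784). The arrays of Hoxb3 overlapped, with the higher basal array between the luminal ones. Hoxa7 had 5.66 and 5.46 in luminal cells, against 5.40 and 5.89 in basal cells, with both luminal arrays inside the basal range (-0.09 ± 0.17, limma adjusted p = 0.771).

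At positions 5 and 8 of the Hoxc cluster the signal crossed the background level between arrays of the same cells. Hoxc5 had 5.49 and 5.47 in luminal cells, against 5.59 and 5.66 in basal cells (-0.14 ± 0.20, limma adjusted p = 0.672). Its second probe set gave a similar value of -0.18. On that probe set, basal replicate 1 lay above the background level (5.66) and basal replicate 2 under it (5.56), the reverse of the first. Hoxc8, the gene tied to the placing of mouse mammary buds, had 5.22 and 5.42 in luminal cells, against 5.45 and 5.78 in basal cells (-0.30 ± 0.27, limma adjusted p = 0.506). For both genes the arrays of the lineages did not overlap, by small gaps.

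Among posterior members, the other paralog 9 genes showed no difference beyond replicate spread. Hoxa9 had 5.72 and 5.86 in luminal cells, against 5.70 and 5.95 in basal cells (-0.03 ± 0.22, 95% interval -0.57 to 0.51, limma adjusted p = 0.953). Hoxc9, which organises motor neurons of the thorax in mice, had 6.20 and 6.43 in luminal cells, against 6.16 and 6.22 in basal cells (0.13 ± 0.16, 95% interval -0.27 to 0.53, limma adjusted p = 0.656). Both intervals lie inside a 2-fold difference in either direction. The width of every interval given here rests on the spread over all 7 arrays, the embryonic ones included. Hoxc10 had 5.37 and 5.54 in luminal cells, against 5.61 and 6.01 in basal cells (-0.36 ± 0.33, limma adjusted p = 0.520). Of the 6 members above background in both lineages, the interval of the difference lay inside 2-fold for 4, Hoxa9, Hoxb3, Hoxb4 and Hoxc9, and not for Hoxa3 and Hoxd9. For the 5 above it in basal cells alone, the luminal signal lay under background and no fold is bounded. Of the 11, 5 had passed the background level in basal cells alone and so had to be lower in luminal cells, and no direction is read from the 11 as a set.

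**Figure D3:**
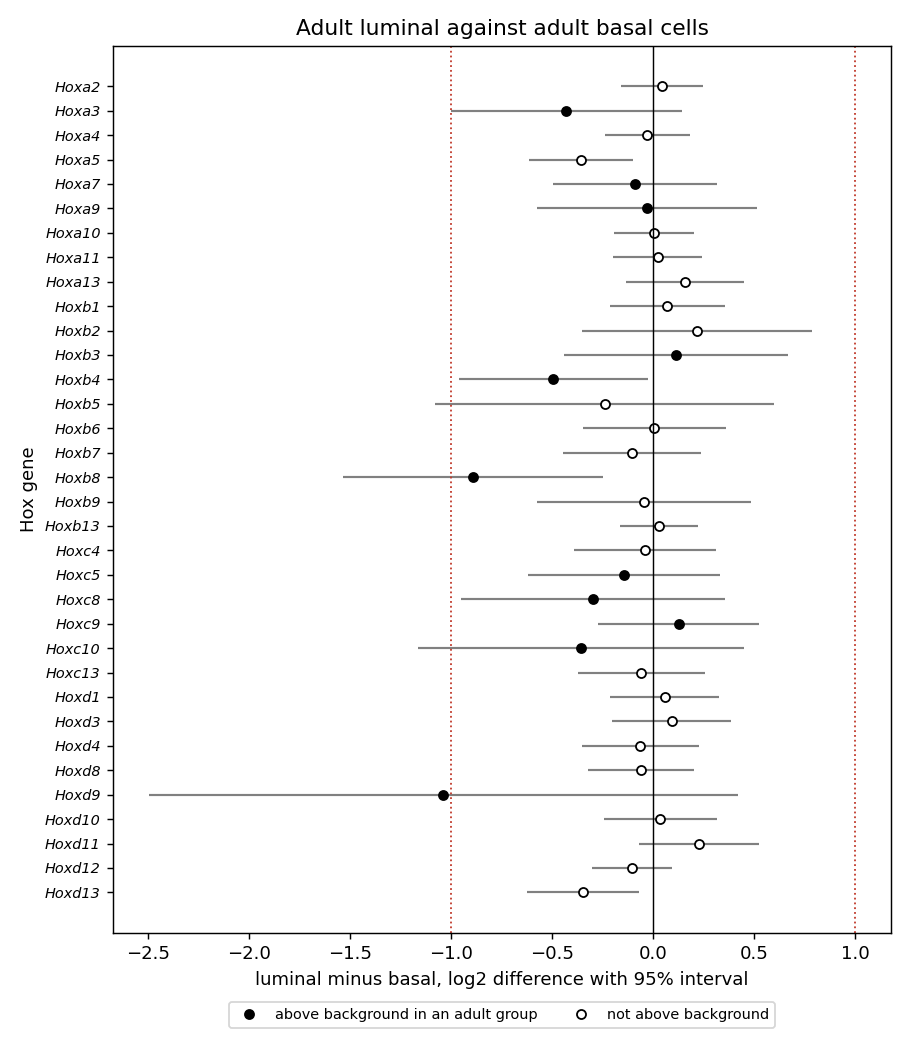
Luminal minus basal difference of each Hox gene on the log2 scale (horizontal axis) with its 95% interval; filled points are above background in an adult lineage, and dotted lines mark 2-fold differences. Hoxd9 has the widest interval, -2.50 to 0.42, and no gene passed the test.

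The other 23 Hox genes had both adult means under the background level, and 22 of them had no adult array above it. The exception was Hoxb2, a hindbrain patterning gene, with 5.61 on luminal replicate 2. Adult arrays ran from 3.27 to 4.69 over the 6 Hoxa genes of this kind, among them the uterine genes Hoxa10 and Hoxa11 and the digit and genital gene Hoxa13. They ran from 3.48 to 5.61 over 7 Hoxb genes, including Hoxb7 and Hoxb13, a gene of the prostate and tail. They ran from 3.93 to 4.78 over Hoxc4 and Hoxc13, a hair follicle gene, and from 2.95 to 5.03 over 8 Hoxd genes, including Hoxd10, Hoxd11 and Hoxd13. Differences of these 23 genes lay between -0.36 and 0.23 and, lying under background, give no measure of the transcripts. Hoxa5, known in human breast cells as an activator of the p53 gene, had 3.49 and 3.50 in luminal cells, against 3.76 and 3.94 in basal cells (-0.36 ± 0.11, limma adjusted p = 0.0767, and 0.0443 with an intensity trend in eBayes). Hoxd13 had 4.30 and 4.24 in luminal cells, against 4.74 and 4.50 in basal cells (-0.35 ± 0.11, limma adjusted p = 0.0960), while its second probe set differed by 0.09.

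Embryonic levels in the table lay at the adult mean for every Hox gene. Adult minus embryonic means, with luminal and basal cells weighted equally, stayed within 0.1 for all 34 members and for 86.1% of all genes, and the largest among members was 0.07 in size. Over probe sets this difference had an SD of 0.09, against 0.49 for luminal minus basal. Embryonic replicates 1 and 2 had identical deposited values for 12 of the 34 genes, replicates 1 and 3 for 3 and replicates 2 and 3 for 2. Of all probe sets, 37.6% were identical in replicates 1 and 2, against at most 94 probe sets between any pair of adult arrays. No source used here tells how the embryonic columns were adjusted, so embryonic against adult values describe the table and not the cells. In limma 0 Hox genes were called for luminal minus embryonic (0.0234% of all genes) and 0 for basal minus embryonic (0.0702%), and 0 had an unadjusted p under 0.05 in either contrast. Of all genes, 2060 had such a p for luminal minus embryonic and 1581 for basal minus embryonic.

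Differences between the embryonic arrays themselves were larger for some Hox genes than those between groups. Hoxd9 had 7.43 and 7.13 on the arrays of 2000 cells and 5.86 on the array of 813 cells. Hoxc10 had 5.93, 6.07 and 5.09 and Hoxc8 had 5.76, 5.05 and 5.78 in replicates 1, 2 and 3. Hoxb8 had 5.83, 5.18 and 5.03. Its largest embryonic difference (0.81, replicate 1 minus 3) was smaller in size than its luminal minus basal difference (-0.89). Replicate 3 was the lowest for Hoxd9, Hoxc10 and Hoxb8 but the highest for Hoxc8. Over all 34 members, replicate 1 was above replicate 3 in 27 (79.4%, median 0.23), against 51.2% of all genes (median 0.02). This count includes the 23 members under background, and of the 11 above it 8 were higher on replicate 1 (median 0.59). Lists mostly under background varied. Replicate 1 was higher in 5 of 6 ParaHox and Cdx genes, 3 of 5 noncoding transcripts of the clusters and 41 of the 66 genes known from other organs. Markers of other cell types were also mostly higher on replicate 1 than on replicate 3. This held for 11 of 15 fibroblast (median 0.56), 9 of 11 endothelial (0.42), 9 of 10 leukocyte (0.26) and 5 of 5 adipocyte markers (0.26). Basal markers were higher in 6 of 9 (0.40) and luminal markers in 5 of 11 (-0.29). Fibroblast markers had a log2 summed intensity of 12.83, 12.70 and 12.28 on replicates 1, 2 and 3, and endothelial markers 12.22, 12.22 and 12.20. The part of cell number or of RNA from other cells in these values was not tested.

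The adult replicates differed in a like manner. Basal replicate 2 was above basal replicate 1 in 28 of the 34 members (82.4%, median 0.12), against 55.2% of all genes (median 0.03). Luminal replicate 2 was above luminal replicate 1 in 24 (70.6%, median 0.10), against 47.4% (median -0.01). These counts include the 23 members under background. Of the 11 above it, replicate 2 was higher in 11 for basal (median 0.33) and 8 for luminal cells (0.14). Among dim lists, basal and luminal replicate 2 were higher in 4 and 6 of 6 ParaHox and Cdx genes. They were higher in 4 and 5 of 5 noncoding transcripts of the clusters, and 31 and 40 of the 66 genes known from other organs. In the basal difference, markers were higher on replicate 2 in 11 of 15 for fibroblasts (median 0.31), 9 of 11 for endothelium (0.73), 7 of 10 for leukocytes (0.08), 4 of 5 for adipocytes (0.19), 9 of 11 for luminal (0.41) and 8 of 9 for basal cells (0.20). In the luminal difference they were higher in 12 of 15 for fibroblasts (0.49), 11 of 11 for endothelium (0.64), 10 of 10 for leukocytes (0.45), 1 of 5 for adipocytes (-0.13), 6 of 11 for luminal (0.04) and 6 of 9 for basal cells (0.43). Their part in the Hox values was not tested.

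**Figure D4:**
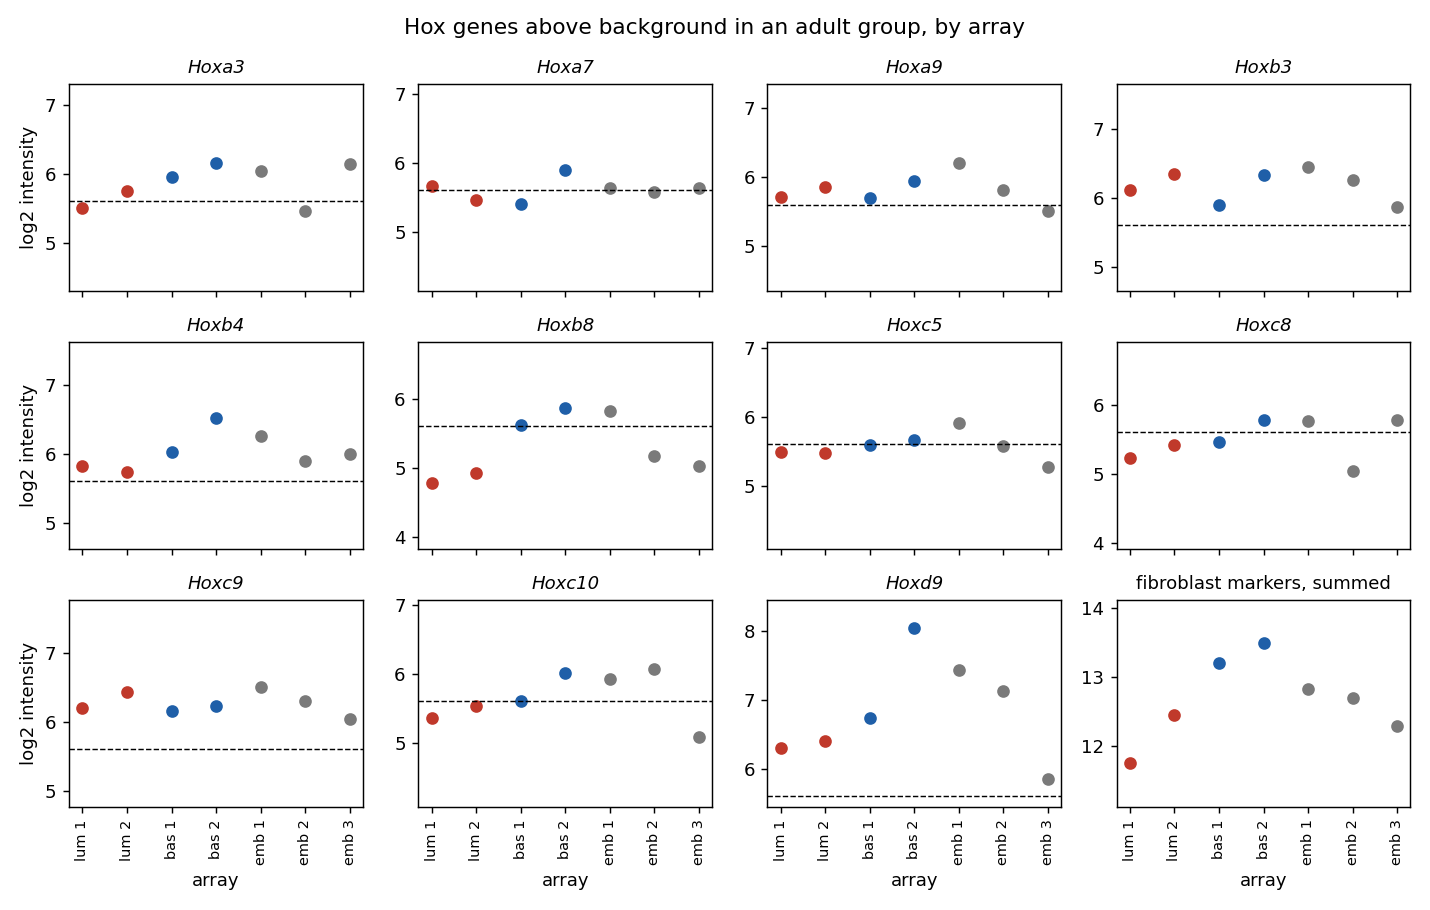
Log2 intensity (vertical axes, each spanning 3 units) on the 7 arrays for the 11 Hox genes above background in an adult lineage, and the log2 summed intensity of 15 fibroblast markers in the last panel; red, luminal; blue, basal; grey, embryonic; dashed, background level of 5.60. Hoxd9 is highest on basal replicate 2 (8.05) and lowest on embryonic replicate 3 (5.86). Within each kind of cell its order over replicates is that of the fibroblast markers, and Hoxa9, Hoxb3, Hoxb8 and Hoxc9 share this order. The other Hox panels depart from it. Summed endothelial markers, not drawn, share the order too, and summed adipocyte and leukocyte markers do not. The share of all genes with this order was not counted.

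The arrays carried the lineage labels in their marker genes. Krt5, the keratin of the basal label, had 9.13 and 9.56 in luminal cells, against 12.03 and 12.15 in basal cells, and was called (-2.75 ± 0.32, limma adjusted p = 0.0106). Krt8, the keratin of the luminal label, had 11.05 and 11.03 in luminal cells, against 10.69 and 10.59 in basal cells, and did not pass (0.40 ± 0.15, limma adjusted p = 0.121). Of 9 basal markers 8 were called, all higher in basal cells, and of 11 luminal markers 8, all higher in luminal cells. By lowest adjusted p they were led by Cdh3 (-3.01), Krt5, Cnn1 (-3.06) and Trp63 (-2.77) for basal and by Foxa1 (2.71), Elf5 (1.68), Pgr (1.88) and Ehf (1.59) for luminal markers. Lgr5, used to sort the embryonic cells, had 6.14 and 6.11 in luminal cells, against 9.79 and 10.25 in basal cells (-3.90 ± 0.44, limma adjusted p = 0.00999). For Itga6, which encodes CD49f, luminal minus basal was -0.45 ± 0.16 and missed the threshold (limma adjusted p = 0.118). Of markers of other cell types, 5 of 15 fibroblast markers were called, all higher in basal cells (list median -1.06), led by Postn (-2.39), Mfap5 (-1.06), Col5a1 (-1.76) and Col6a1 (-1.68), and 0 of 11 endothelial (median -1.25), 0 of 5 adipocyte (median -0.30) and 0 of 10 leukocyte markers (median -0.10). Summed log2 intensities on luminal and basal arrays were 12.09 and 12.31 against 12.37 and 12.40 for endothelial, 7.34 and 8.00 against 8.31 and 8.74 for adipocyte, and 8.52 and 9.06 against 9.04 and 9.27 for leukocyte markers. Above background in an adult lineage were 11 of 15 fibroblast, 10 of 11 endothelial, 2 of 5 adipocyte and 4 of 10 leukocyte markers. Single markers chosen after their values were seen, Pdgfra of fibroblasts (3.47 to 3.80), Adipoq of adipocytes (3.23 to 3.74) and Ptprc of leukocytes (2.73 to 3.18), were under background on every adult array. Array medians lay between 5.05 and 5.08 on the log2 scale, and precision is limited by there being only 7 arrays.

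Most partners of Hox proteins on DNA were above background, and none was called. Of 8 Pbx, Meis and Pknox genes 7 were above background in an adult lineage (54.7% of all genes) and 0 were called (5.49% of all genes; median 0.09). Nothing is read from 0 calls in a list this short. Pbx3 had 6.25 and 6.21 in luminal cells, against 6.95 and 7.19 in basal cells. Its difference of -0.84 ± 0.14 had a limma adjusted p of 0.0204 and missed the 2-fold minimum. Meis1, another Hox cofactor, had 7.14 and 6.87 in luminal cells, against 6.67 and 6.58 in basal cells (0.38 ± 0.18, limma adjusted p = 0.203).

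No chromatin regulator of the clusters measured here was called. All 19 Polycomb genes measured were above background in an adult lineage and 0 were called (median 0.01). Bmi1, a subunit of the Polycomb complex that marks histone H2A, had 6.07 and 6.20 in luminal cells, against 5.33 and 5.59 in basal cells (0.67 ± 0.13, limma adjusted p = 0.0291), under 2-fold. Ezh2, the methyltransferase subunit, had a difference of 0.24. All 9 trithorax-side genes were above background and 0 were called (median 0.22). Ash2l, a core subunit of the histone H3 methyltransferase complexes, had 8.20 and 8.12 in luminal cells, against 7.66 and 7.52 in basal cells (0.57 ± 0.09, limma adjusted p = 0.0183), under 2-fold too. Differences of this size also occurred among the 66 organ-restricted genes, of which Cel, Trh and Tshb had an adjusted p under 0.05 with less than 2-fold. Without a fold minimum, 13% of all genes had a limma adjusted p under 0.05. With it, 5.49% of all genes were called, and 54.7% were above background. Nothing is read from 0 calls in lists this short.

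Noncoding transcripts of the clusters were under background, and most flanking protein genes were above it. None of 5 such transcripts, Hoxa11os, Hoxaas2, Hoxb5os, Hoxd3os1 and Haglr, was above background or called (median 0.05). Of 11 protein genes flanking the clusters 7 were above background and 0 were called (median 0.23). 3 of them had an adjusted p under 0.05 and less than 2-fold: Smug1 beside Hoxc (0.83 ± 0.10, limma adjusted p = 0.0109), Mtx2 beside Hoxd (0.75 ± 0.13, limma adjusted p = 0.0223) and Skap2 beside Hoxa (0.90 ± 0.19, limma adjusted p = 0.0323). All 3 were higher in luminal cells by value. Of all genes, 13% had a limma adjusted p under 0.05 with no fold minimum, and nothing is read from the 3 as a set. The ParaHox and Cdx genes, relatives outside the clusters, were above background in 0 of 6 and called in 0 of 6 (median -0.05). Over all genes, 54.7% were above background and 5.49% were called, and nothing is read from 0 calls in lists this short.

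Other homeobox genes included some that differed strongly between the lineages. Of 84 measured, 27 were above background in an adult lineage and 4 were called (4.76%, against 5.49% of all genes; median -0.06). Msx2, a target of BMP signalling in mammary buds, had 6.69 and 6.66 in luminal cells, against 5.07 and 5.56 in basal cells, both under background (1.36 ± 0.22, limma adjusted p = 0.0192). Irx4 had 4.997 and 5.10 in luminal cells, both under background, against 6.84 and 7.72 in basal cells (-2.23 ± 0.36, limma adjusted p = 0.0198). Prrx1, a gene of limb and craniofacial mesenchyme, had 5.94 and 6.14 in luminal cells, against 8.08 and 8.51 in basal cells (-2.26 ± 0.39, limma adjusted p = 0.0215). As listed above, fibroblast markers were higher in basal cells too, and their part in the Prrx1 difference was not tested. Tgif2, a repressor in TGF-beta signalling, was also lower in luminal cells (-1.23 ± 0.23, limma adjusted p = 0.0248).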

How the data were processed

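Per the labels' protocols, RNA of sorted mammary cells was amplified before labelling for Affymetrix arrays. Adult samples carry the protocol text of the embryonic ones, with no other account of their preparation in the sources used here. The authors deposited probe set intensity values on a linear scale, 1 column for each of 7 arrays. RMA and affy are named in the submitters' processing notes, with no settings, and how adult and embryonic arrays were put on a common scale is unknown. Since the tests were planned for log2 values, each intensity was first converted to log2.

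The table had 45141 rows, of which 104 for array controls and 4 that were blank were dropped. The platform annotation gave 1 symbol for 28895 of the 45033 probe sets used, several for 551 and none for 15587. Entrez identifiers matched 28686 of the first kind to RefSeq genes, with 0 symbol updates. The probe set of highest mean stood for each of 17096 genes. Limma 3.58.1 in R 4.3.3 fitted 3 group means over 7 arrays with eBayes (4 residual degrees of freedom, prior 2.29). A gene was called at a Benjamini-Hochberg adjusted p under 0.05 over all genes and at least 2-fold. On simulated data of 17096 genes for luminal minus basal, the fit found 90% of genes altered by 1.5 (log2) and 100% of those altered by 3, and 1 of its 191 calls was false. The simulated noise was independent between arrays. Both sizes exceed the largest Hox difference (-1.04, Hoxd9), so the simulation does not tell how often differences of Hox size would be found.

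The Hox genes and the lists were chosen with earlier results of these data known. Every Hox gene was accounted for, with values per array for up to 12 members above background in an adult lineage. Of other lists, up to 4 called members per direction were named by adjusted p and up to 2 not called in list order, and the driver and sort genes Krt5, Krt8, Lgr5 and Itga6. Hoxb9, Hoxa5, Hoxd13, Meis1, Bmi1, Ash2l, Smug1, Mtx2, Skap2, Cel, Trh, Tshb and the defining markers of other cell types were named after their values were seen. Alternatives changed the background level, the probe set per gene, the treatment of dim genes, the normalization, the eBayes prior, weights on arrays, the fold minimum and which arrays were fitted (each left out in turn, adult ones alone), or added a replicate block. Plots were made in Python 3.11.15 using matplotlib 3.10.9.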

Additional observations from a re-analysis of the deposited data

How the results depend on the processing

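The count of Hox genes called was 0 in luminal minus basal, luminal minus embryonic and basal minus embryonic under every alternative run, including each replicate left out (0 to 0) and, chosen after seeing the data, every probe set tested alone and the probe set of lowest mean. Over all genes the luminal minus basal count was 939, and it moved by over 1.5 times without luminal replicate 1 (60), luminal replicate 2 (148), basal replicate 1 (180) or basal replicate 2 (377), with array weights (605), with 1.5-fold (1839) and with no fold minimum (2223). The number of Hox genes above background was 11, 8 to 12 with a replicate left out (8 without basal replicate 2), and 5 with the 99th percentile of organ-restricted genes as the level. The Hoxb8 difference ran from -1.02 to -0.77 and its limma adjusted p from 0.0153 to 0.373. The adjusted p was 0.0153 with adult arrays alone, 0.0268 without embryonic replicate 1, 0.0415 without embryonic replicate 3 and 0.0474 with embryonic replicates 1 and 2 averaged. In these fits Hoxb8 differed by -0.89, under 2-fold, and they were not run without a fold minimum. Besides Hoxd9 and Hoxb8, no Hox gene reached 2-fold in luminal minus basal in any run. For the other members the 2-fold minimum alone fixed the count at 0 wherever it was used. Hoxa5 had an adjusted p of 0.0443 with an intensity trend in eBayes against 0.0767 as reported. The Hoxd9 difference ran from -1.69 to -0.38 (adjusted p from 0.122 to 0.746). With the lowest probe set, Hoxb4 differed by 0.06 and Hoxd13 by 0.09. Same-numbered samples showed little joint deviation (correlations of 0.08, -0.08 and -0.08). With 1 replicate difference per group, this cannot exclude that the numbers pair the samples. With the replicate block 0 Hox genes and 1199 genes in all were called. With 2 arrays per adult lineage, a difference as wide as the Hoxd9 interval was not resolved, and signal under the background level gives no measure of a transcript.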
